A study of Mus musculus with 9 samples.

Results

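The genes described here encode the subunits of receptors for fast and modulatory transmission by glutamate, GABA, glycine and acetylcholine. They were chosen by symbol alone: the AMPA (Gria), kainate (Grik), delta (Grid) and NMDA (Grin) subunits, the metabotropic glutamate receptors (Grm), the GABA-A subunits (Gabr), the glycine receptor subunits (Glra, Glrb) and the nicotinic subunits (Chrn). The rule found 57 of the 18193 genes tested, with 113 probe sets between them. Of the 57, 22 were glutamate receptor genes (16 ionotropic and 6 metabotropic), 15 were GABA-A, 5 glycine and 15 nicotinic receptor genes. Each gene was represented by whichever of its probe sets had the highest average on the 9 arrays, and 35 of the 57 had more than 1 probe set.

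RNA came from the auditory nerve of adult CBA/CaJ mice of both sexes, aged 8 to 12 weeks, with no transgene or injury named in the labels. The 3 groups, of 3 arrays each, were auditory nerve tissue, cultured auditory nerve cells and neurospheres. The cultured cells were nerve dissociated with 0.25% trypsin and DNase I, passed through a 70 µm strainer and kept in medium with B27 and 10% serum until confluent, after 5 to 7 days. The neurospheres, which are clusters of dividing cells, were grown from such cultures for 12 days in serum-free medium with EGF at 20 ng/ml, FGF at 10 ng/ml and heparin at 2 µg/ml. Nothing in the labels tells whether samples of a group stem from different mice or culture dishes, and p-values thus reflect a spread between arrays that may be technical. With 3 arrays a group, the precision of each value is limited.

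AMPA, kainate and NMDA receptors are cation channels that open when glutamate binds, and metabotropic glutamate receptors act through G proteins. GABA-A and glycine receptors are chloride channels, and nicotinic receptors are cation channels opened by acetylcholine. In the cochlea, inner hair cells release glutamate onto AMPA receptors of spiral ganglion neurons, whose axons form the auditory nerve, while nicotinic receptors of hair cells receive the efferent input and glia of nerve carry several of the same receptors.

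Signals are given on the log2 scale, on which 1 unit is a 2-fold difference, and they are set side by side within a gene, since probe sets differ in brightness. Where 2 differences from tissue stand side by side, the first is that of cultured cells and the other that of neurospheres. As a guide to the signal of genes taken to be silent in nerve, the 95th percentile of 39 olfactory receptor genes was 5.41 on tissue arrays, 5.44 on cultured cell arrays and 5.46 on neurosphere arrays. By that guide, a description with no test, 24 of the 57 receptor genes lay above background in tissue and 18 in cultured cells, 17 did so in neurospheres, and 30 lay above it in no group, each gene by the probe set that stands for it. These are 42.1%, 31.6% and 29.8% of the receptor genes, where 72.3%, 68.7% and 69.1% of all genes tested lay above the guide in the same groups. Glutamate receptor genes made up 17 of the 24 in tissue. The others were 1 of the 15 GABA-A genes (Gabrb1), the glycine receptor genes Glra3 and Glrb, and 4 nicotinic genes (Chrna1, Chrna7, Chrnb1 and Chrnd). By other probe sets the count would differ: Chrnb2 had a probe set at 6.32 to 6.49 in tissue, and Gabrb2 had others at 5.47 to 6.44 and 5.75 to 6.19.

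Against tissue, a part of the receptor genes fell in both cultures, and few rose. In neurospheres against tissue, 20 of the 57 were lower (35.1%) and 2 higher (3.51%), at an adjusted p under 0.05 and a fold over 1.5. Of all genes tested, 21.0% were lower and 21.7% higher in that comparison. In cultured cells against tissue, 18 receptor genes were lower (31.6%) and 3 higher (5.26%), where 22.0% of all genes were lower and 20.4% higher. These comparisons share the tissue arrays. The median difference of the 57 genes was close to that of all genes, at -0.02 against 0.05 in neurospheres and at -0.08 against -0.01 in cultured cells. There, 35 and 36 of the 57 did not pass.

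**Figure D1:**
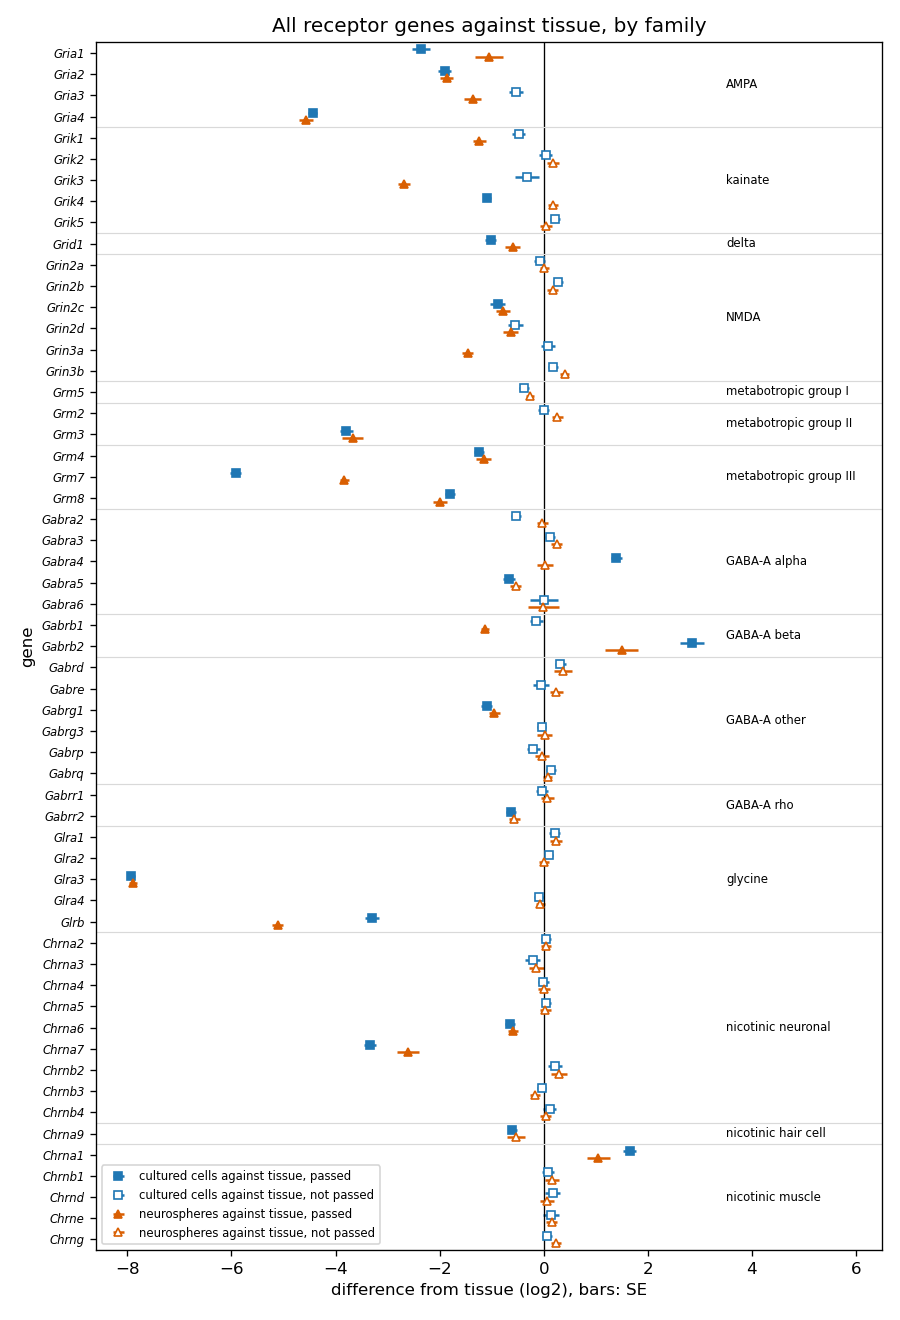
Difference from tissue (log2, horizontal axis) of each of the 57 receptor genes, grouped by family, with squares for cultured cells, triangles for neurospheres, bars for the standard error and filled symbols for genes that passed. The largest falls belong to Glra3, Grm7, Glrb and Gria4, and the rises to Gabrb2, Chrna1 and, in cultured cells, Gabra4.

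Neurospheres and cultured cells differed from each other in fewer receptor genes. There, 8 of the 57 were lower in neurospheres (14.0%, against 8.91% of all genes) and 4 were higher (7.02%, against 9.0% of all genes). The 8 were Grik3, Glrb, Grin3a, Gabra4, Gabrb2, Gabrb1, Gria3 and Grik1, and the 4 were Grm7, Gria1, Grik4 and Chrna7.

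Other measures moved with these groups. The 12 neuron markers were all above background in tissue, with a summed signal of 15.81 to 15.99 (log2) that was 10.32 to 10.58 in cultured cells and 10.72 to 11.03 in neurospheres. Of the 12, 11 were lower in neurospheres and 12 in cultured cells, and the neurofilament gene Nefh and the neuronal RNA-binding genes Elavl4 and Rbfox3 were not above background in either culture. Schwann cell and myelin markers were also lower (6 of 7 in each culture), as were 4 of 6 macrophage markers in each culture. Of 7 fibroblast markers, 6 were higher in neurospheres, while 4 were higher and 1 lower in cultured cells. The 3′ minus 5′ signal of actin, a sign of RNA quality, had a mean and SD (n = 3) of 2.71 ± 0.35 on tissue arrays, 0.36 ± 0.037 on those of cultured cells and 0.70 ± 0.15 on those of neurospheres. It set tissue apart from both cultures for every gene alike, whether or not the gene passed. The part of these measures in the receptor results was not tested. In bulk samples, fewer cells of a type and less RNA per cell cannot be told apart.

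The promoters of 4 genes are shown to set the sequence of genes with large changes beside their values. They are Glra3, Glrb and Grm7, which fell, and Gabrb2, which rose. They were chosen after the values were seen, and Gria4, which is not among the genes with a motif match, was left out. Promoters were found for 42 of the 57 genes, and whether Gria4 was among them is not given. Each promoter shown runs from 250 bases before to 50 bases after a start site in RefSeq (GRCm38.p6), 5′ to 3′. Capitals mark the GC box (GGGCGG), the right arm of RE1 (GGACAG), which is the element bound by the repressor of neuronal genes REST, and the TATA box (TATAAA), each searched on both strands so that CCGCCC and CTGTCC are the reverse of the first and of the RE1 arm.
Glra3 promoter, chr8:55940168-55940467, plus strand: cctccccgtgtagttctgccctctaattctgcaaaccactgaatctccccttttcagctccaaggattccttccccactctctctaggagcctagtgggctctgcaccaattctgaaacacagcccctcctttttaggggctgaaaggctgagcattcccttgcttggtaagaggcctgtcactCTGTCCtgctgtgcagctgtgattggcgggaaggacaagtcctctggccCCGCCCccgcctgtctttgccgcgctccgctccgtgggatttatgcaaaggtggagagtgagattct
Glrb promoter, chr3:80913611-80913910, minus strand: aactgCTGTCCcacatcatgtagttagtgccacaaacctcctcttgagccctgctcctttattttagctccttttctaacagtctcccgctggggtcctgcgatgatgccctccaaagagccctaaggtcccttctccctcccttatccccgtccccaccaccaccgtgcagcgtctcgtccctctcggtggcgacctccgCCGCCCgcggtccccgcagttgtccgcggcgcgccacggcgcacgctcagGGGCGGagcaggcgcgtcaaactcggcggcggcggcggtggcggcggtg
Grm7 promoter, chr6:110645262-110645561, plus strand: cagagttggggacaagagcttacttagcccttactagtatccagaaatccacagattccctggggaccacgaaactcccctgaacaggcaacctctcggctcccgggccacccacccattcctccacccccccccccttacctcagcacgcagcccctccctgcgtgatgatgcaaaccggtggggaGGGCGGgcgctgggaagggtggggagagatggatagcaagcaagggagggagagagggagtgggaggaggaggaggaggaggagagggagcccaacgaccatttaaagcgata
Gabrb2 promoter, chr11:42420190-42420489, plus strand: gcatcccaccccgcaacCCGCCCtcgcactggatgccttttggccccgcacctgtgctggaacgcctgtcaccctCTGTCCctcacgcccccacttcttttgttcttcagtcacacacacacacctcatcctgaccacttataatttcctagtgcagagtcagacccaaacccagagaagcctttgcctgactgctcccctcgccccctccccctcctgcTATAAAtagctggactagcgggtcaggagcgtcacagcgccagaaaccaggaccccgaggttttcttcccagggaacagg
Grm7 had 2 promoters in the table and Gabrb2 had 3, and the first is shown of each.

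In these windows Glra3 held 2 matches, Glrb 3, Grm7 1 and Gabrb2 3. Of the promoters not shown, numbers 2 and 3 of Gabrb2 held 0 matches each and number 2 of Grm7 held 1. Among 27025 mouse promoters of the same length, 35.9% held the GC box, 22.1% the RE1 right arm, 7.09% the RE1 left arm (CAGCACC), 14.2% the TATA box and 1.88% the cAMP response element (TGACGTCA). Of 42 receptor genes with a promoter in the table, 23 held the GC box (54.8%), 16 the RE1 right arm (38.1%), 3 the left arm (7.14%), 5 the TATA box (11.9%) and 0 the cAMP response element. In the 13 receptor promoters of genes lower in neurospheres, 8 held the GC box, 7 the RE1 right arm, 0 the left arm and 0 the TATA box. In the other 29 the counts were 15, 9, 3 and 5. The median GC content was 52.7% over all promoters, 59.8% over the 42, 65.7% over the 13 and 59.0% over the 29. These are descriptions with no test, and a match is not a bound site.

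Of the AMPA receptor subunits, which carry fast excitation, Gria4 showed the largest fall by the probe sets that stand for the genes, though another probe set of Gria2 fell further. Gria4 was at 10.44, 10.44 and 10.25 in tissue, at 5.98, 5.87 and 5.95 in cultured cells, and at 5.53, 5.88 and 6.02 in neurospheres. The tissue arrays lay far above both cultures, which overlapped each other. The difference was -4.44 ± 0.088 (SE) in cultured cells (limma, adjusted p = 2.51e-10) and -4.57 ± 0.13 in neurospheres (adjusted p = 1.31e-08), a fold of 21.7 and 23.7. Of its other 2 probe sets, 1 also fell (-3.54 and -3.90) and 1 did not pass in either culture.

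Gria2, the subunit that makes AMPA receptors nearly impermeable to calcium, was at 6.74, 7.00 and 6.58 in tissue, 4.88, 4.98 and 4.75 in cultured cells, and 4.94, 4.90 and 4.88 in neurospheres. The difference was -1.91 (SE 0.12, adjusted p = 4.45e-07) and -1.87 (SE 0.12, adjusted p = 1.27e-06). Both cultures lay below the background guide. The size of this fall depended on the probe set: the other 2 for Gria2 gave -3.90 and -5.95 in cultured cells and -3.91 and -5.96 in neurospheres. The dimmest of the 3 in the cultures, 8.12 to 8.69 in tissue, was at 2.38 to 2.53 in cultured cells.

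Gria1 differed between the cultures. Its signals were 5.48, 6.17 and 5.43 in tissue, 3.38, 3.38 and 3.27 in cultured cells, and 4.79, 4.08 and 5.03 in neurospheres. Its difference was -2.35 in cultured cells (SE 0.18, adjusted p = 1.59e-06) and -1.06 in neurospheres (SE 0.27, adjusted p = 0.00774), and it was higher in neurospheres than in cultured cells by 1.29 (SE 0.22, adjusted p = 0.00204). Neurosphere arrays, all below the background guide, lay between the other groups without overlap. The other Gria1 probe set gave -1.29 in cultured cells and 0.90 between the cultures, both of which passed. In neurospheres against tissue it gave -0.39 and did not pass, so that fall rests on 1 of 2 probe sets. The call for that fall was also lost with the test that the methods name, after adjustment.

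Gria3 was the AMPA subunit that stayed well above background everywhere. It was at 10.68, 11 and 11.11 in tissue, 10.16, 10.43 and 10.60 in cultured cells, and 9.26, 9.74 and 9.69 in neurospheres. It was lower in neurospheres than in tissue (-1.37, SE 0.16, adjusted p = 7.34e-05) and than in cultured cells (-0.83, SE 0.16, adjusted p = 0.00387). With the test that the methods name, after adjustment, Gria3 lost the latter call. In cultured cells against tissue its difference of -0.53 (SE 0.14, adjusted p = 0.00823) stayed under the fold threshold, and it passed without tissue array 1 (-0.66) or cultured cell array 3 (-0.63). The other Gria3 probe set went the other way there, at 0.23, and did not pass. In neurospheres that probe set passed downward against tissue (-0.88) and against cultured cells (-1.11).

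**Figure D2:**
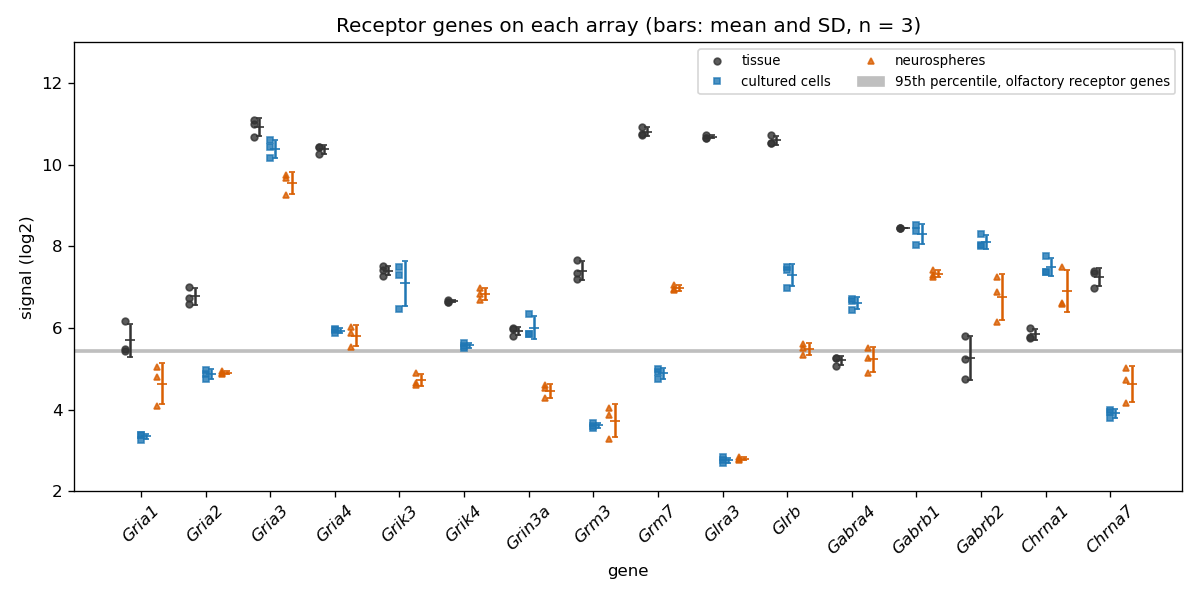
Signal (log2, vertical axis) of 16 receptor genes on each of the 9 arrays, with symbols for the arrays of each group, bars for the mean and SD (n = 3) and a grey band at the background guide. Levels are to be compared within a gene: Glra3, Grm3 and Chrna7 lie below the band in both cultures, while Gabrb2 rises above it and Gria3 stays above it.

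Kainate receptor genes split between the cultures. Grik3 was at 7.51, 7.43 and 7.28 in tissue and at 6.47, 7.30 and 7.51 in cultured cells, which overlapped. It was at 4.61, 4.89 and 4.66 in neurospheres, below every other array. Neurospheres differed from tissue by -2.69 (SE 0.11, adjusted p = 8.83e-08) and from cultured cells by -2.37 (SE 0.24, adjusted p = 0.000146), while cultured cells differed from tissue by -0.32 (SE 0.23, adjusted p = 0.258). Its other probe set gave 0.08 and 0.14 against tissue and did not pass.

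Grik4, a high-affinity kainate subunit, went the other way. It was at 6.70, 6.64 and 6.64 in tissue, 5.56, 5.51 and 5.64 in cultured cells, and 6.98, 6.68 and 6.84 in neurospheres. Cultured cells differed from tissue by -1.09 (SE 0.080, adjusted p = 1.37e-06) and neurospheres were higher than cultured cells by 1.26 (SE 0.098, adjusted p = 3.4e-05), whereas neurospheres and tissue differed by 0.18 (SE 0.098, adjusted p = 0.152). Grik1 was lower in neurospheres than in tissue (-1.24) and than in cultured cells (-0.76), and lay below the background guide in all groups. Grik5, the other high-affinity subunit, had means of 7.39, 7.62 and 7.44 (tissue, then cultured cells, then neurospheres) and passed in no comparison. The delta subunit Grid1 was lower in cultured cells (-1.02) and in neurospheres (-0.60), and the latter call was lost without tissue array 1 (-0.55) or 2 (-0.53) or neurosphere array 2 (-0.48). The other Grid1 probe set gave -0.03 and 0.18 and did not pass.

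Of the 6 NMDA receptor genes, Grin3a, a subunit that lowers calcium entry, changed most in neurospheres, while in cultured cells it did not pass. It was at 5.81, 5.98 and 5.99 in tissue, 5.84, 6.33 and 5.84 in cultured cells, and 4.60, 4.27 and 4.52 in neurospheres. Neurospheres differed from tissue by -1.46 (SE 0.11, adjusted p = 4.37e-06) and from cultured cells by -1.54 (SE 0.15, adjusted p = 0.000123), with no overlap, and another of its 3 probe sets also passed in both (-1.63 and -1.19). Grin2c was lower in both cultures (-0.89 and -0.79), from a tissue mean below background. Grin2d passed only against tissue in neurospheres (-0.63), and not without tissue array 1 (-0.47) or neurosphere array 1 (-0.57). Its cultured cell difference of -0.55 passed without tissue array 2 (-0.61) or 3 (-0.65) or cultured cell array 1 (-0.63). The other Grin2d probe set gave 0.29 in cultured cells and 0.12 in neurospheres and did not pass. Grin2a, Grin2b and Grin3b passed in no comparison, with differences from tissue between -0.08 and 0.41.

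Metabotropic receptors of group III, which lower transmitter release, were lower in both cultures for all 3 genes measured. Grm7 was at 10.76, 10.94 and 10.74 in tissue, 4.93, 4.99 and 4.74 in cultured cells, and 6.95, 6.92 and 7.07 in neurospheres. The groups were far apart, and only the cultured cells lay below the background guide. The fall was 60.7-fold in cultured cells (-5.92 ± 0.099 SE, adjusted p = 1.08e-10) and 14.2-fold in neurospheres (-3.83 ± 0.094, adjusted p = 5.15e-09). Neurospheres were 4.26-fold higher than cultured cells (2.09 ± 0.094, adjusted p = 3e-06). Of the other 2 Grm7 probe sets, 1 gave -1.14 in cultured cells and 0.81 between the cultures, both of which passed, and the other gave -0.47 and 0.44, which did not. In neurospheres against tissue they gave -0.33 and -0.03 and did not pass, so the fall in neurospheres rests on 1 of 3 probe sets.

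Grm8 was at 5.41, 5.55 and 5.71 in tissue, 3.79, 3.70 and 3.76 in cultured cells, and 3.83, 3.45 and 3.41 in neurospheres, a difference of -1.81 (SE 0.095, adjusted p = 1.22e-07) and -1.99 (SE 0.13, adjusted p = 1.97e-06). Grm4 also fell (-1.24 and -1.16). Among group II receptors, Grm3, which astrocytes express strongly, was at 7.35, 7.66 and 7.20 in tissue, 3.60, 3.56 and 3.68 in cultured cells, and 4.05, 3.87 and 3.27 in neurospheres. The difference was -3.79 (SE 0.12, adjusted p = 3.78e-09) and -3.67 (SE 0.20, adjusted p = 6.19e-07). Beside it, 5 of 6 astrocyte markers were lower in neurospheres than in tissue. Grm2 did not pass in any comparison, and neither did the group I receptor Grm5, whose means of 3.25, 2.86 and 2.98 lay below background. Of all glutamate receptor genes, 14 of 22 were lower in neurospheres and 10 of 22 in cultured cells, and 0 were higher in either. Of all genes, 21.0% were lower in neurospheres and 22.0% in cultured cells, and 21.7% and 20.4% were higher.

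The glycine receptor gene Glra3 showed the largest fall of the 57 genes in each culture, by the probe sets that stand for the genes. Glra3 encodes an alpha subunit that binds glycine. It was at 10.67, 10.73 and 10.67 in tissue, 2.76, 2.83 and 2.70 in cultured cells, and 2.84, 2.79 and 2.76 in neurospheres. The difference was -7.93 ± 0.080 (SE, adjusted p = 3.2e-11) in cultured cells, a fold of 243, and -7.89 ± 0.081 (adjusted p = 2.44e-10) in neurospheres, a fold of 238. Both cultures lay below the background guide, so these folds depend on the background signal. The other Glra3 probe set was at 4.0 to 4.10 in tissue and changed by -0.12 and 0.03, so the fall rests on 1 of 2 probe sets.

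Glrb encodes the beta subunit, which tethers glycine receptors to the scaffold gephyrin. It was at 10.73, 10.54 and 10.52 in tissue, 6.98, 7.42 and 7.49 in cultured cells, and 5.33, 5.61 and 5.51 in neurospheres. No group overlapped another. It changed by -3.30 in cultured cells (SE 0.14, adjusted p = 2.29e-08) and by -5.11 in neurospheres (SE 0.11, adjusted p = 2.43e-09), and neurospheres differed from cultured cells by -1.82 (SE 0.15, adjusted p = 4e-05). The other Glrb probe set gave -4.74 and -6.73. Glrb and Gria2 lie next to each other in the genome, with no other protein-coding gene between them, and both fell. Against tissue, no other neighbouring receptor genes passed in the same direction by the probe sets that stand for them. For example, Gabra6 beside Gabrb2 and Chrnb3 beside Chrna6 passed in no comparison. A link between position and change was not tested. Glra1, Glra2 and Glra4 lay below background in all groups and passed in no comparison.

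**Figure D3:**
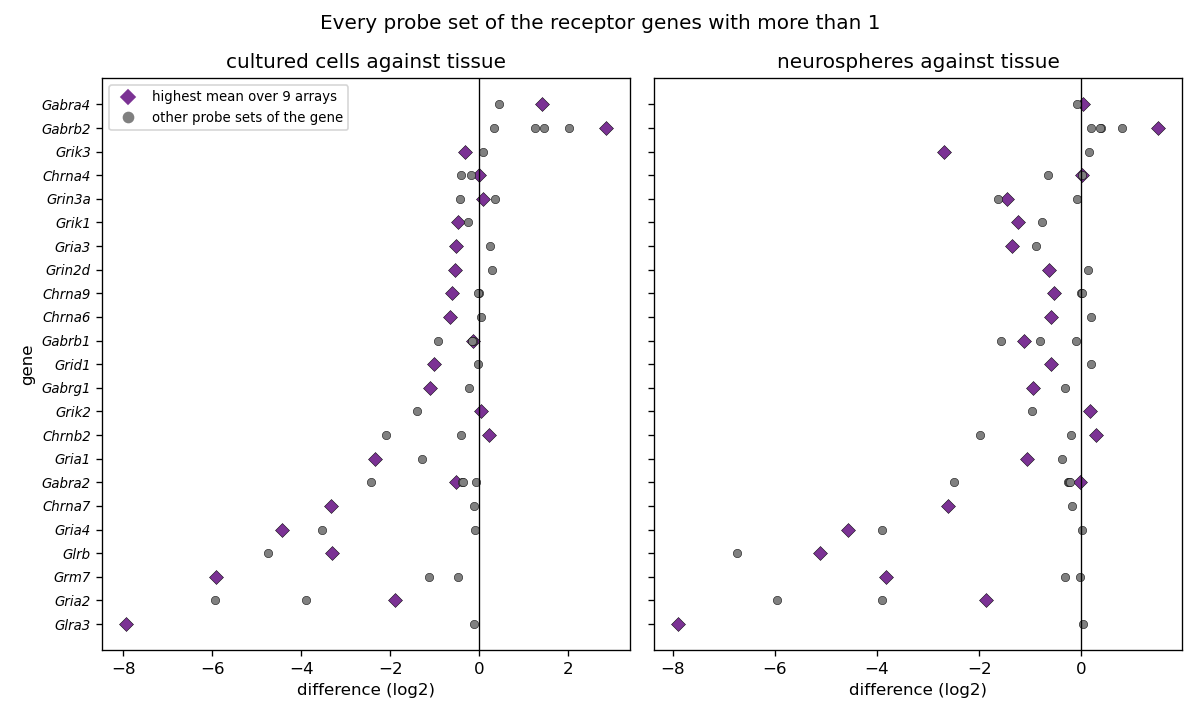
Difference from tissue (log2, horizontal axes) of each of the 61 probe sets of the 23 receptor genes that had more than 1 probe set and at least 1 that passed against tissue, for cultured cells (left) and neurospheres (right). Diamonds mark the probe set that stands for the gene and circles the others. The probe sets of Glrb, Gria2 and Gabrb2 lie on the same side, while for Glra3, Chrna7, Chrna9, Gria4, Grik3, Chrna6 and Grid1 another stays near 0.

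GABA-A receptor genes were mostly below background, and the exceptions included the genes that rose. Gabrb2, a beta subunit common in brain receptors, was at 4.74, 5.80 and 5.25 in tissue, 8.03, 8.00 and 8.32 in cultured cells, and 6.16, 7.25 and 6.87 in neurospheres. Each group lay apart from the others, although tissue and neurospheres each spanned over 1 unit. It was 7.22-fold higher in cultured cells (2.85 ± 0.23 SE, adjusted p = 2.38e-06) and 2.82-fold higher in neurospheres (1.5 ± 0.32, adjusted p = 0.00288) than in tissue, and neurospheres differed from cultured cells by -1.36 (SE 0.25, adjusted p = 0.00321). Gabrb2 lost the call between the cultures with the test that the methods name, after adjustment. Of its 5 probe sets, 4 passed upward in cultured cells (1.24 to 2.85) and 2 in neurospheres (0.80 and 1.5).

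Gabra4, an alpha subunit of extrasynaptic receptors, was higher in cultured cells. It was at 5.08, 5.27 and 5.27 in tissue, 6.67, 6.44 and 6.71 in cultured cells, and 4.90, 5.27 and 5.51 in neurospheres, which overlapped tissue. Cultured cells exceeded tissue by 1.40 (SE 0.10, adjusted p = 1.42e-06), and neurospheres differed from cultured cells by -1.38 (SE 0.16, adjusted p = 0.000255). The other Gabra4 probe set gave 0.45 and -0.54 in these comparisons and passed in neither, so both calls rest on 1 of 2 probe sets. Its neighbour in the genome, Gabrb1, was at 8.45, 8.46 and 8.45 in tissue, 8.52, 8.04 and 8.37 in cultured cells, and 7.30, 7.26 and 7.43 in neurospheres. Gabrb1 was lower in neurospheres than in tissue (-1.13, SE 0.085, adjusted p = 4.29e-06) and than in cultured cells (-0.98, SE 0.13, adjusted p = 0.000568). In cultured cells it differed from tissue by -0.14 (SE 0.12, adjusted p = 0.33), and 1 of its other 3 probe sets passed (-0.93).

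The remaining GABA-A calls were small and came from genes below background in every group. Gabrg1 was lower in both cultures (-1.10 and -0.95). Gabra5 and Gabrr2 were lower in cultured cells, at -0.67 and -0.63 in turn. The Gabra5 call was lost without cultured cell array 2 (-0.57), and that of Gabrr2 without tissue array 1 (-0.58) or cultured cell array 3 (-0.57). In neurospheres, where neither passed, both did without tissue array 3 (-0.59 and -0.64), Gabra5 without neurosphere array 2 (-0.61) and Gabrr2 without neurosphere array 3 (-0.62). Gabra2 was at 4.11, 4.32 and 3.98 in tissue by its brightest probe set and did not pass, although in cultured cells it passed without tissue array 3 (-0.61). Another Gabra2 probe set, at 5.14, 5.53 and 5.19 in tissue, changed by -2.44 in cultured cells and -2.5 in neurospheres. Of the 15 GABA-A genes, 2 were lower and 1 higher in neurospheres, and 3 lower and 2 higher in cultured cells. The shares lower, 13.3% and 20.0%, lay under the 21.0% and 22.0% of all genes.

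Among nicotinic receptors, Chrna7, the alpha7 subunit that forms calcium-permeable homomers, was the neuronal gene above background in tissue by the probe set that stands for it, although another probe set of Chrnb2 lay above it too. It was at 7.34, 7.40 and 6.99 in tissue, 3.78, 4.0 and 3.94 in cultured cells, and 4.16, 4.72 and 5.02 in neurospheres. Tissue lay above both cultures, which were below the background guide. The difference was -3.34 (SE 0.12, adjusted p = 8.86e-09) and -2.61 (SE 0.21, adjusted p = 6.75e-06). The difference of 0.73 between neurospheres and cultured cells (SE 0.20, adjusted p = 0.021) did not pass without cultured cell array 1 (0.67) or 3 (0.74) or neurosphere array 2 (0.68) or 3 (0.53). Nor did it pass with the test that the methods name, after adjustment. The other Chrna7 probe set changed by -0.13 and -0.18.

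Chrna1, the alpha subunit of the muscle receptor, was higher in both cultures. It was at 5.99, 5.76 and 5.78 in tissue, 7.36, 7.76 and 7.37 in cultured cells, and 7.49, 6.59 and 6.61 in neurospheres. It exceeded tissue by 1.65 in cultured cells (SE 0.13, adjusted p = 1.7e-06) and by 1.05 in neurospheres (SE 0.23, adjusted p = 0.0032). Cultures overlapped because of neurosphere array 1, and without it neurospheres differed from cultured cells by -0.90 and passed. The other muscle subunits, Chrnb1, Chrnd, Chrne and Chrng, passed in no comparison and differed from tissue by 0.06 to 0.24. Of 9 skeletal muscle markers, the contractile actin Acta1 and desmin were higher in cultured cells (1.40 and 0.80) and 0 in neurospheres. The muscle regulators Myod1 and Myog and the myosins Myh1, Myh2 and Myh4 were not above background in any group.

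Chrna9, of the receptor of hair cells, was below background in all groups, at 5.02, 4.83 and 4.97 in tissue, 4.29, 4.32 and 4.38 in cultured cells, and 4.13, 4.23 and 4.84 in neurospheres. It was lower in cultured cells (-0.61, SE 0.086, adjusted p = 0.000153), a call lost without tissue array 1 (-0.57). The call was also lost with probe sets averaged per gene (-0.21), and the other Chrna9 probe sets gave -0.01 and -0.02 and did not pass. In neurospheres its difference of -0.54 passed without tissue array 2 (-0.59) or neurosphere array 3 (-0.76). Beside it, 5 of 7 hair cell markers were above background in tissue, where 72.3% of all genes tested were. Among the 5 was the synaptic protein otoferlin (Otof), at 7.38 in tissue. Chrna6 was lower in both cultures (-0.65 and -0.60). Its cultured cell call was lost without cultured cell array 2 (-0.56), and its neurosphere call without tissue array 1 (-0.57) or neurosphere array 1 (-0.58) or 3 (-0.55). Its other probe set gave 0.03 and 0.18 and did not pass. The beta subunit Chrnb2 did not pass by its brightest probe set, but another probe set at 6.32 to 6.49 in tissue changed by -2.10 and -1.99. The other neuronal subunits passed in no comparison by their brightest probe sets.

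Counted by probe set, 33 of the 113 were lower and 3 higher in neurospheres, where 18.5% of all probe sets were lower and 21.2% higher. In cultured cells 28 were lower and 6 higher, where 18.9% of all probe sets were lower and 21.7% higher. No receptor gene had probe sets that passed in opposite directions. The genes lower by another probe set alone were Chrnb2, Gabra2 and Grik2 in each culture, Chrna4 in neurospheres and Gabrb1 in cultured cells.

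The partners of the receptors, which are their auxiliary proteins, scaffolds, and enzymes and transporters of the transmitters, were also lower in many cases. Of 89 measured, 38 were lower and 10 higher in neurospheres, and 43 were lower and 7 higher in cultured cells. Of all genes, 21.0% were lower and 21.7% higher in neurospheres, and 22.0% lower and 20.4% higher in cultured cells. The median difference of the 89 was -0.36 in neurospheres and -0.47 in cultured cells, against 0.05 and -0.01 over all genes. Between neurospheres and cultured cells 8 were lower and 9 higher, where 8.91% of all genes were lower and 9.0% higher. The shorter lists below are given as counts to be read against the same shares.

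**Figure D4:**
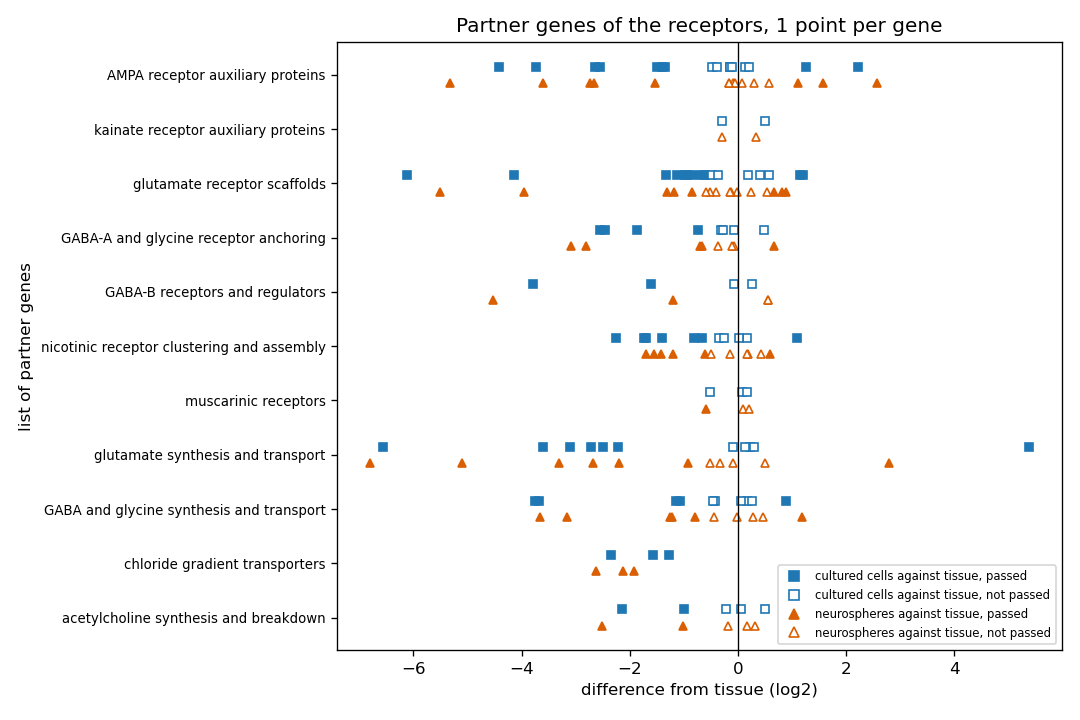
Difference from tissue (log2, horizontal axis) of the 89 partner genes in 11 lists, 1 point per gene, with squares for cultured cells, triangles for neurospheres and filled symbols for genes that passed. All 3 chloride transporters lie below 0, and the glutamate transporter Slc1a6 lies farthest to the right.

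AMPA receptor auxiliary genes went both ways. Of 16, 5 were lower and 3 higher in neurospheres, and 7 lower and 2 higher in cultured cells. Frrs1l, needed for AMPA receptor assembly, changed by -4.42 in cultured cells and -5.32 in neurospheres, and the TARP genes Cacng5, Cacng2 and Cacng4 by -3.74 to -2.54. The TARP gene Cacng8 rose by 2.23 and 1.10. Nptx1, a secreted pentraxin that clusters AMPA receptors, was at 6.36, 6.11 and 6.20 in tissue, 4.66, 5.06 and 4.73 in cultured cells, and 8.50, 9.18 and 8.70 in neurospheres. Nptx1 was thus higher than tissue in neurospheres, by 2.57, and lower in cultured cells (-1.41). Both kainate receptor auxiliary genes (Neto1 and Neto2) did not pass.

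Of 16 glutamate receptor scaffold genes, 5 were lower and 3 higher in neurospheres, and 9 lower and 2 higher in cultured cells. Dlg2, which encodes PSD-93, changed by -6.13 in cultured cells and -5.51 in neurospheres, and Homer2 by -4.14 and -3.96. Dlg3 and Dlgap4 rose in both, by 0.67 to 1.21. For GABA-A and glycine receptors, the anchoring genes Lhfpl4 (-2.54 and -3.08), Nsf (-2.46 and -2.81) and gephyrin (Gphn, -0.74 and -0.65) were lower. In all, 4 of the 8 genes of that list were lower in each culture, and Gabarap, which encodes a protein that binds GABA-A receptors, was higher in neurospheres (0.68). The GABA-B receptor gene Gabbr1 was lower in both (-1.61 and -1.19), as was its regulator Kctd8 (-3.79 and -4.53).

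Of 11 genes for nicotinic receptor clustering and assembly, 5 were lower and 1 higher in neurospheres, and 6 lower and 1 higher in cultured cells. Those lower included rapsyn (Rapsn), which clusters the muscle receptor and fell by 1.71 in each culture, the chaperone Ric3 (-1.73 and -1.54) and the prototoxin Lynx1 (-2.26 and -1.41). Agrin (Agrn), the nerve-derived clustering signal, was the gene that rose in neurospheres (0.60, adjusted p = 0.036), and Tmem35a, a chaperone of alpha7 receptors, was the one that rose in cultured cells (1.10). Of 3 muscarinic receptor genes, Chrm1 was lower in neurospheres (-0.59). Acetylcholinesterase (Ache, -2.14 and -2.51) and butyrylcholinesterase (Bche, -1.0 and -1.01) fell, as 2 of the 5 genes for acetylcholine synthesis and breakdown.

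Genes that supply and clear glutamate fell in 6 of 11 cases in each culture. The vesicular transporter Slc17a6 (VGLUT2) changed by -6.56 in cultured cells and -6.80 in neurospheres, the glial transporter Slc1a2 by -3.61 and -5.11, and glutamine synthetase (Glul) by -2.22 and -2.19. Slc1a6, the EAAT4 transporter, went the other way. It was at 4.65, 4.72 and 4.76 in tissue, 10.38, 10.03 and 9.87 in cultured cells, and 8.41, 6.94 and 7.15 in neurospheres, a rise of 5.39 and 2.79. The GABA transporters Slc6a12 and Slc6a13 fell (-3.75 to -3.17), while the glycine cleavage gene Gldc rose by 0.89 and 1.19. All 3 chloride transporters measured, Slc12a2, Slc12a5 and Slc12a7, were lower, at -2.34 to -1.28 in cultured cells and -2.63 to -1.93 in neurospheres.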

How the data were processed

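Total RNA (100 ng per sample) was labelled and hybridised to Affymetrix mouse arrays. The deposited values are log2 signals that the authors made by RMA in Affymetrix Expression Console; MAS5 is also named and no version is given in the sources used here. Array medians were 6.15 to 6.27. Of 45037 probe sets that are not controls, 34945 named 1 gene, 932 several and 9160 none, and those that named several were left out. Symbols were updated with a GRCm38.p6 gene table, and 162 were not matched. For a gene with several, the probe set of highest average signal on the 9 arrays was kept.

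Groups were compared in pairs on the 6 arrays of each comparison with limma 3.58.1 (lmFit, eBayes, 2-sided) in R 4.3.3. The call required a fold over 1.5 and, with Benjamini-Hochberg adjustment over the 18193 genes, a p under 0.05. The study's methods name Student's test, which was run as an alternative. The pipeline was tested on simulated data. Every adjusted p is from limma, and SE is its moderated standard error.

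Members, lists and tests were chosen with earlier results of these data known. Values on every array are given for up to 10 members with the largest changes in each comparison, for those that rose and for the member with the highest tissue mean of most families. For each partner list, up to 4 of the largest changes are named, with genes that moved against the rest. Alternatives were other scalings, other rules for probe sets, filters and fold thresholds, 1 fit for the 9 arrays, a prior that is robust and trended, a replicate block and the removal of each array in turn. Markers of neurons, Schwann cells, oligodendrocytes, astrocytes, fibroblasts, macrophages, hair cells, skeletal muscle, and cerebellar and cochlear nucleus neurons were listed.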

Additional observations from a re-analysis of the deposited data

How the results depend on the processing

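Of 55 calls of single receptor genes, 38 held under each alternative that tested the gene, and 0 reversed. When the threshold of a 2-fold change was left aside, 41 held. The filter on low expression left only 18 of the 55 calls to test, and these 18 held. Without each array in turn 47 held. Receptor genes lower in neurospheres against tissue then numbered 17 to 22, and higher 2 to 2; in cultured cells 16 to 20 and 3 to 3; and between the cultures 8 to 9 and 3 to 4. Without the 40% of genes with the lowest expression only 9 receptor and 45 partner genes were left to test, so the counts fell to 6 and 3 lower against tissue in neurospheres and cultured cells, to 4 lower and 1 higher between the cultures, and to 28 and 29 partner genes. Of all genes left by that filter, 2540 were lower and 3401 higher in neurospheres than in tissue, and 2667 and 3283 in cultured cells. Between the cultures 1337 were lower and 1306 higher. With no fold threshold, 5 receptor genes were higher in cultured cells and 35 partner genes passed between the cultures. With a fold over 2, 5 receptor genes were lower and 8 partner genes passed there. With the probe set that was highest in any group, an alternative chosen after seeing the data, 23 were lower in neurospheres and 21 in cultured cells. Of all genes, 3984 and 4194 were. Counting receptor genes with any probe set that passed, also chosen later, gave 24 and 22 lower. With probe sets averaged per gene 8 calls were lost, with quantile normalization 6, and with the methods' t-test after Benjamini-Hochberg 4.

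With the replicate number as a replicate block, the counts remained 20 and 2 in neurospheres, 18 and 3 in cultured cells, and 8 and 4 between the cultures. Samples with the same number did not deviate together in each pair (correlations of -0.19 to 0.21), so the number was not taken to pair samples, and not every sample correlated best with its own number. Genes near background are limited by signal over background: there the array cannot show how far a gene fell.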

Other observations

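Of the marker lists, 5 of 6 oligodendrocyte markers were lower in neurospheres, and 2 of 6 markers of cerebellar and cochlear nucleus neurons (Cbln1 and Neurod1) were lower in each culture. Gabra6, a receptor subunit of cerebellar granule cells that stands in that list and among the receptor genes, was not above background in any group, with means of 3.84, 3.84 and 3.83 in tissue, cultured cells and neurospheres.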
